A study of Mus musculus with 24 samples.

Results

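The response of the Kdm5c knockout hippocampus to exploring a new environment was described from 6 RNA sequencing libraries, 3 from knockout mice after 1 h of novelty and 3 from untreated knockout mice in the home cage, out of 18 libraries with counts in the series. The comparison was chosen by sample labels alone and covers every gene. Knockout mice (KO) carried the constitutive null allele Kdm5c-/y, labelled Kdm5c -/-, on a mixed F1 C57/129 background. For novelty, each animal spent its hour alone in a white Plexiglas box that held plastic tubing and toys. The 6 wild-type libraries, 3 home cage and 3 novelty, show where the KO response differed, and they also enter the fit that gives the KO p-values, through its spread and its filter on low counts. With the 6 KO libraries alone 10 genes were called, of which 8 were among the 18 described below. The background of the wild-type mice is not given separately in the sources used here. All mice were males of 2 to 4 months, and each library pooled the hippocampi of 3 mice, so every error and p-value below measures the spread between 3 pools per group. Counts assigned to genes were 45.6, 22 and 29.5 M in KO home cage libraries 1, 2 and 3, 22.1, 16.7 and 20.0 M in KO novelty libraries 1, 2 and 3, and 16 to 31.4 M in wild type.

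Neurons answer activity with a wave of immediate early genes, which are transcribed within minutes without new protein synthesis. Many of them encode transcription factors such as Fos, Egr and Nr4a proteins, and others encode synaptic and signalling proteins. Calcium and cAMP signals reach many of these genes through the factor CREB, which binds the cAMP response element (CRE) in their promoters. A new environment also releases corticosterone, which acts on its own target genes through the glucocorticoid receptor. KDM5C, encoded on the X chromosome, removes methyl groups from lysine 4 of histone H3, a mark of promoters and enhancers, and its loss in humans causes an intellectual disability syndrome.

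The targeted gene, Kdm5c (chromosome X, 152233020 to 152274535 in GRCm38), had levels of 75.8, 76.3 and 75.4 in KO home cage libraries 1, 2 and 3, and of 78.5, 77.8 and 86.5 in KO novelty libraries 1, 2 and 3. Levels here and below are in CPM, the count of a gene per M gene counts of its TMM-scaled library. The novelty libraries lay above the home cage ones by little, and the change did not pass the test (log2 fold change 0.09 ± 0.06 SE, edgeR adjusted p = 0.866). The counts sum all exons of Kdm5c, and a mutant transcript that lacks some of them would still be counted, so the labels' genotypes are not checked by them. In wild type Kdm5c rose by 0.34 ± 0.06 (edgeR adjusted p = 0.0387), from 74.2 to 76.4 CPM in home cage libraries to 90.2 to 100.04 CPM after novelty. The difference between both responses was -0.25 (95% interval of the single gene -0.44 to -0.06, unadjusted p = 0.0153, edgeR adjusted p = 0.9999), which does not pass over all genes.

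Of 16392 genes tested in KO, 18 rose after novelty and none fell. The share of all tested genes called higher was 0.11% and the share called lower 0% (edgeR quasi-likelihood test, Benjamini-Hochberg adjusted p under 0.05). At an unadjusted p under 0.05 there were 607 higher and 493 lower genes, and DESeq2 called 61 higher and 9 lower. The 18 were transcription factors of the early response (Maff, Fosb, Fosl2, Nr4a2), activity-regulated signalling and synaptic genes (Gadd45b, Arl4d, Cdkn1a, Errfi1, Nptx2), corticosteroid targets (Tsc22d3, Sgk1, Pdk4, with Cdkn1a and Errfi1 on both lists), genes of the endoplasmic reticulum (Hspa5, Xbp1), the neuropeptide gene Adcyap1, and Map3k19, Plekhf1 and Irs2, which were on no list. Rises were small: 4 of the 18 exceeded a doubling, and the median of the 18 was 0.85 on the log2 scale, a value that the threshold itself helps to set. In each of the 18 every novelty library lay above every home cage library, but p-values from these same libraries chose the 18, so nothing is read from this. Of all tested genes 8.6% lay wholly above and 6.35% wholly below.

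These calls rest on few libraries. Without KO home cage library 1 the count was 2, without home cage library 2, home cage library 3 or novelty library 1 it was 1, and without novelty libraries 2 and 3 it was 9 and 10. Fosl2 passed in all 6 of these fits, Map3k19 in 3, Cdkn1a, Errfi1 and Tsc22d3 in 2, Adcyap1, Gadd45b, Hspa5, Maff, Pdk4 and Xbp1 in 1, and Arl4d, Fosb, Irs2, Nptx2, Nr4a2, Plekhf1 and Sgk1 in none. The log2 fold change of all 18 genes was positive under every alternative run.

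**Figure D1:**
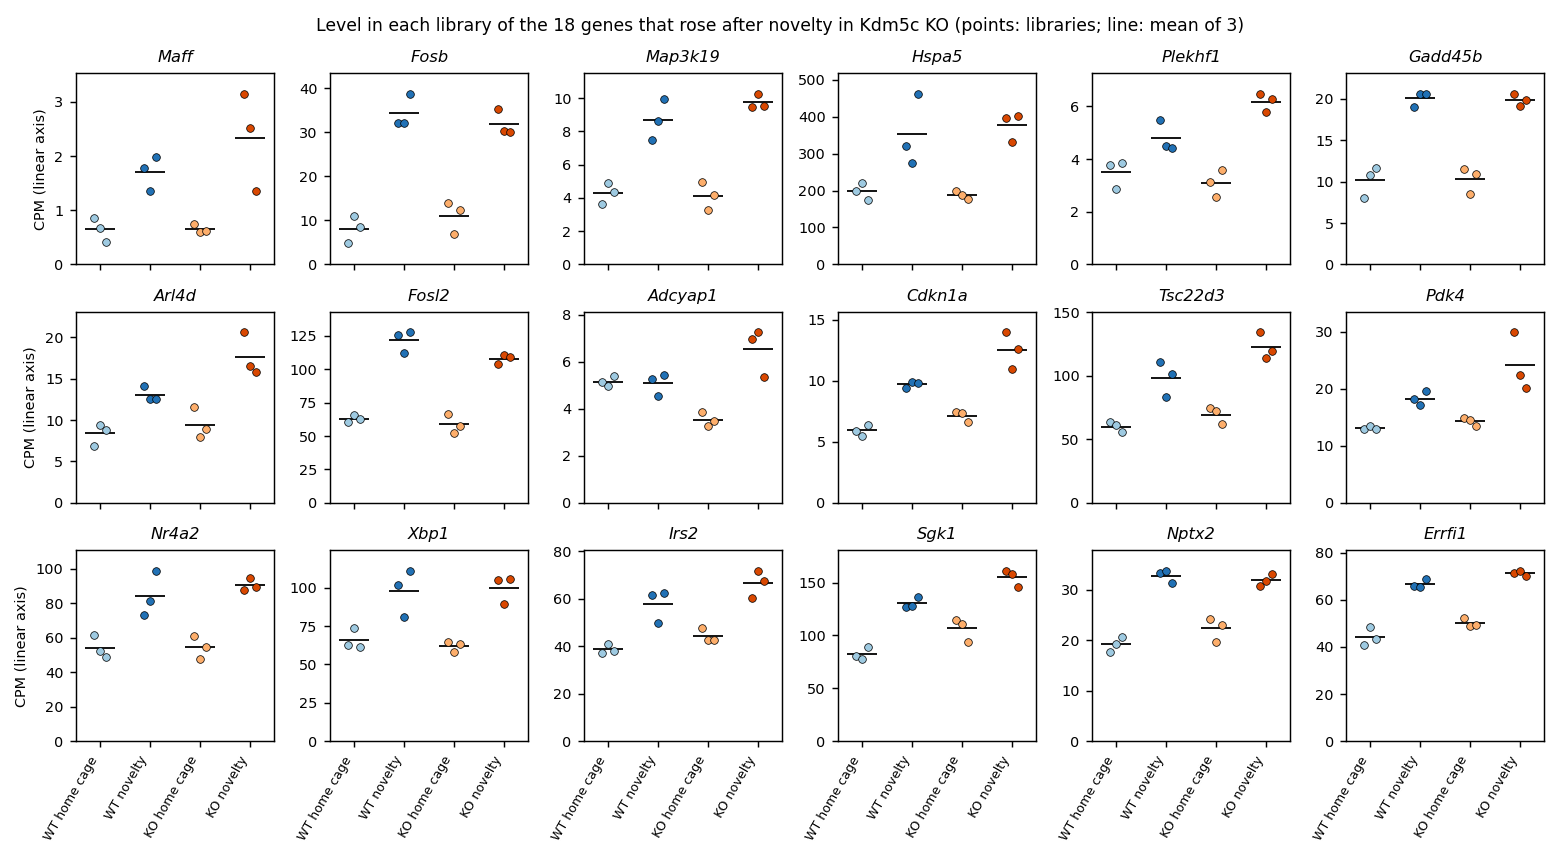
Each panel shows 1 of the 18 genes that rose after novelty in KO, with CPM on a linear axis from 0, 1 point per library and a line at the mean of 3, for wild-type and KO mice in the home cage and after novelty. In all 18 panels the 3 KO novelty points lie above the 3 KO home cage points, and in the panel of Adcyap1 the wild-type points of both conditions overlap.

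Fosl2 encodes a Fos family protein that pairs with Jun proteins to form the factor AP-1. It lies on chromosome 5, 32135801 to 32157842, and had the smallest p of all genes. Its level was 66.3, 52.3 and 57.8 CPM in KO home cage libraries 1, 2 and 3 and 104, 111 and 109 CPM in KO novelty libraries 1, 2 and 3. The groups were far apart, and the rise was 0.87 ± 0.09 (edgeR adjusted p = 0.00184). Fosb, another Fos family gene (chromosome 7, 19302696 to 19310051), stood at 14.0, 6.93 and 12.3 CPM in the home cage and at 35.2, 30.2 and 30.2 CPM after novelty. Home cage library 2 was the low one, and the rise was 1.5 ± 0.23 (edgeR adjusted p = 0.0329).

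Maff encodes a small Maf protein, a partner of leucine zipper factors, and had the largest fold of the 18 (chromosome 15, 79346621 to 79359076). Its level was 0.743, 0.601 and 0.609 CPM in the KO home cage and 3.15, 2.52 and 1.35 CPM after novelty. Novelty library 3 was the lowest of its group but still above the home cage, and the rise was 3.52-fold (log2 1.82 ± 0.31, edgeR adjusted p = 0.0492). Maff passed by a small margin: with RLE scaling or without genes under 1 CPM in 3 libraries it did not pass. Nr4a2, an orphan nuclear receptor, rose from 61.3, 47.8 and 54.9 CPM to 87.6, 94.8 and 89.7 CPM, or by 0.73 ± 0.12 (edgeR adjusted p = 0.0363).

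The best known early genes were higher in mean after novelty but did not pass in KO. Fos was read at 25.8, 14.5 and 26.3 CPM in the home cage and 48.2, 38.9 and 44.3 CPM after novelty, without overlap (0.97 ± 0.34, edgeR adjusted p = 0.53). For Arc, whose protein acts at synapses on glutamate receptor traffic, the values were 307, 146 and 275 CPM and then 407, 292 and 370 CPM, which overlap (0.55 ± 0.30, adjusted p = 0.799). Npas4, a factor that shapes inhibitory synapses, had 27.4, 19.2 and 31.5 CPM and then 41, 27.6 and 42.8 CPM, again with overlap (0.51 ± 0.26, adjusted p = 0.766). In these 3 genes KO home cage library 2 was the lowest library, and libraries 1 and 3 already stood nearer to the novelty levels. Egr1, a zinc finger factor, had the same order: 191, 104 and 159 CPM in the home cage and 243, 220 and 222 CPM after novelty (0.59 ± 0.20, adjusted p = 0.514). Without the low-count filter Fos and Egr1 passed (edgeR adjusted p = 0.0012 and 0.0049), while Arc and Npas4 did not. Under the other alternatives none of these genes passed.

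Over the list of immediate early transcription factors, 4 of 30 tested members rose, against 0.11% of all tested genes, and none fell. This list and those below were chosen with earlier results of these data known, so their shares are description only. Of the 30, 27 had a positive log2 fold change, against 8444 of all 16392 genes. The median was 0.50 against 0.00 over all tested genes. In 17 of the 30 every novelty library was above every home cage library, or 56.7% against 8.6% of all genes. The mean of log2(CPM + 0.5) over the list was 4.39, 3.91 and 4.35 in KO home cage libraries 1, 2 and 3 and 4.79, 4.71 and 4.74 after novelty, so the novelty libraries were alike and the home cage libraries were not. In wild type it was 3.57, 4.18 and 3.97 in the home cage and 4.73, 4.62 and 4.72 after novelty. The novelty libraries of both genotypes lay between 4.62 and 4.79, while KO home cage libraries 1 and 3 were above all wild-type home cage libraries. What the home cage spread contributed to the KO response was not tested.

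**Figure D2:**
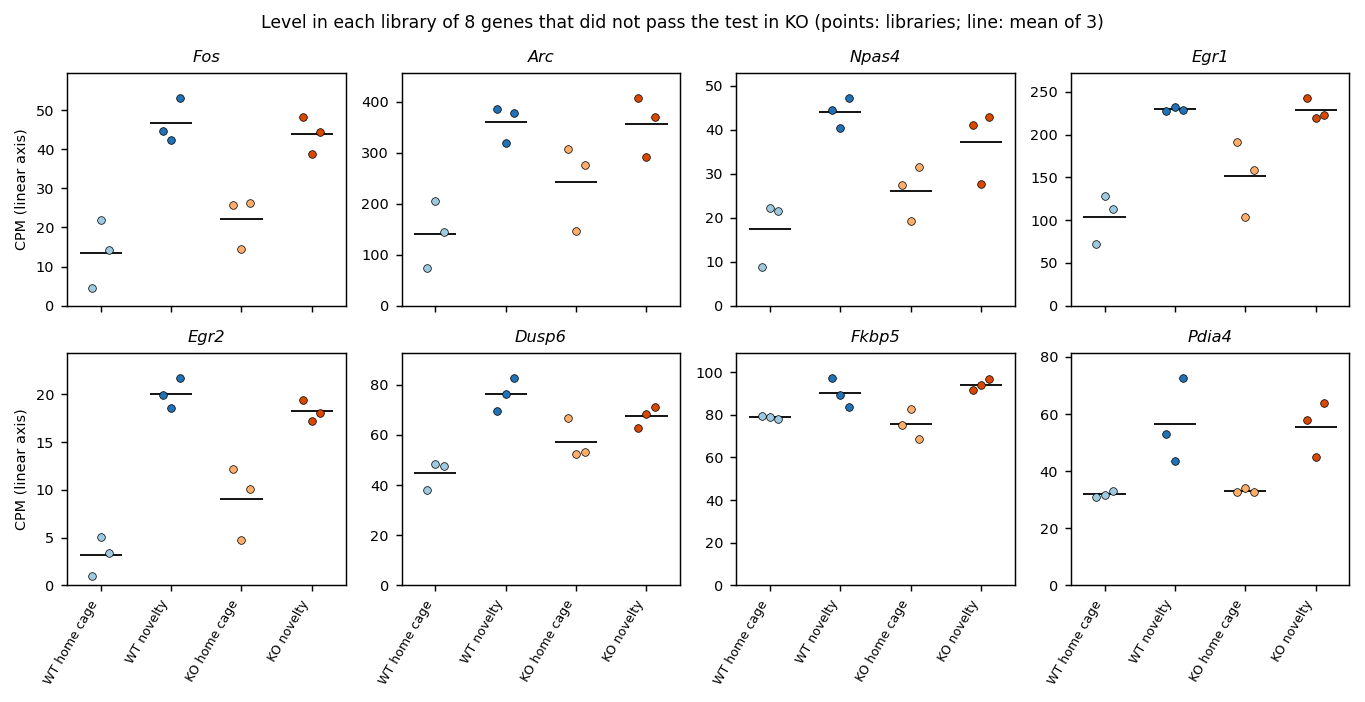
CPM on a linear axis from 0 for 8 genes that did not pass the test in KO, with 1 point per library and a line at the mean of 3 per group. KO home cage library 2 is the lowest KO point for Fos, Arc, Npas4, Egr1 and Egr2, and KO and wild-type novelty points lie at like levels for Fos, Egr1 and Egr2.

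Promoters of the genes that rose were read to show which of them carry the sequence that CREB binds. RefSeq windows of GRCm38.p6, from 250 bases before to 50 bases after a start site, were given for 16 of the 18 genes. The full CRE, TGACGTCA, was present in 3 of these 16 genes (Maff, Arl4d and Errfi1), against 2.03% of 27025 genes with a window and 1.79% of 32851 windows. Its core TGACG, which is part of the full CRE and was read on both strands as all motifs were, was present in 9 of 16, against 23.0% of all genes and 20.8% of windows. Such shares were not particular to genes that rose. Of cytosolic ribosomal protein genes, none called in KO, 4 of 33 held the full CRE and 17 the core. For cytosolic heat shock proteins, also without a call, these were 0 and 9 of 15, and for glutamate and GABA receptor subunits 0 and 4 of 23. The serum response element of the CArG type was in none of the 16, against 1.81% of all genes, and the E-box CACGTG was in 4 of 16, against 8.09% of all genes. The element of endoplasmic reticulum stress genes (ERSE, here CCAAT, any 9 bases and CCACG) was in Hspa5 alone of the 16, against 0.137% of all genes. A match is a run of letters and shows no binding. Shown 5′ to 3′ on the gene's strand, with the motif in capitals, are the 3 promoters with a full CRE, those of Fosb and Nr4a2 with the core only, and the ERSE of Hspa5. They lie at chr15:79347420-79347519 (Maff, plus strand), chr11:101665441-101665540 (Arl4d, plus), chr4:150854970-150855069 (Errfi1, plus), chr7:19310052-19310145 (Fosb, minus), chr2:57124103-57124213 (Nr4a2, minus) and chr2:34772021-34772050 (Hspa5, plus).
Maff: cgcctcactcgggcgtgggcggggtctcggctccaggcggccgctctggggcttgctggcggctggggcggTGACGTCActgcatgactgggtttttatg
Arl4d: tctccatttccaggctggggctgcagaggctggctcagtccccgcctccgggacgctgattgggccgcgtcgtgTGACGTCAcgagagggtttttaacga
Errfi1: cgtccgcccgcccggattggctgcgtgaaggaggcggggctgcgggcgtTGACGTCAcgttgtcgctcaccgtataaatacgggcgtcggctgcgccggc
Fosb: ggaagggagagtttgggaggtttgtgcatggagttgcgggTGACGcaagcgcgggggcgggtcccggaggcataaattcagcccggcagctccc
Nr4a2: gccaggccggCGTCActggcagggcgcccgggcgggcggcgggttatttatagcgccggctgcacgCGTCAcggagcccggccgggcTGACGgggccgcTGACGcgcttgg
Hspa5: ttcaCCAATCGGAGGCCTCCACGacggggc

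The full CRE began 29 bases before the RefSeq start in Maff, 26 in Arl4d and 51 in Errfi1, and the Fosb core 60 bases before it. The stretches of Maff and Hspa5 lie inside the gene spans given in this report, so their RefSeq starts lie past the first base of these spans. The printed stretch of Nr4a2 held 4 copies of the core, on both strands, beginning 200, 144, 123 and 111 bases before its start. Copies elsewhere in the Nr4a2 window were not counted. Among the immediate early transcription factors, 18 of the 24 genes with a window held the core, and 2 held the full CRE. Several genes with the core, among them Fos, Egr2 and Npas4, did not pass in KO.

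Among the activity-regulated effectors, genes that act on synapses, signalling and growth downstream of activity, 5 of 31 rose, against 0.11% of all tested genes. All 31 had a positive log2 fold change, against 8444 of all 16392 genes. The median was 0.32, against 0.0048 over all tested genes. Gadd45b, a stress protein linked to DNA demethylation, stood at 11.6, 8.55 and 10.9 CPM in the KO home cage and 20.6, 19.2 and 19.8 CPM after novelty. The novelty libraries lay within a narrow band, and the rise was 0.93 ± 0.13 (edgeR adjusted p = 0.0145). Arl4d, a small GTPase of the Arf family, went from 11.5, 7.91 and 8.90 CPM to 20.6, 16.5 and 15.8 CPM, without overlap (0.89 ± 0.15, adjusted p = 0.0462). Errfi1, an inhibitor of the EGF receptor, rose by 0.51 ± 0.07 (adjusted p = 0.0145), from 52.3, 48.9 and 49.2 CPM to 71.3, 72.4 and 70.1 CPM. Both of its groups were tight around a change of 1.42-fold. Nptx2, a secreted pentraxin that gathers glutamate receptors at synapses, went from 24.3, 19.7 and 23.1 CPM to 30.8, 31.8 and 33.1 CPM (0.51 ± 0.09, adjusted p = 0.0451). Homer1, a postsynaptic scaffold named here after its values were seen, was at 120, 104 and 92.6 CPM and then 159, 249 and 157 CPM, and did not pass (adjusted p = 0.287). Novelty library 2 was the high one.

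Negative regulators of MAP kinase signalling did not pass in any of 15 tested members (median 0.13, 14 positive). Unadjusted p-values were under 0.05 for 4 of them, against 1100 of all 16392 tested genes, of which 8444 had a positive log2 fold change. Dusp6, a phosphatase of ERK chosen after its values were seen, was at 66.7, 52.3 and 53.0 CPM in the home cage and 62.9, 68.3 and 71.3 CPM after novelty, with overlap (0.23 ± 0.11, edgeR adjusted p = 0.755).

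Among targets of the glucocorticoid receptor 5 of 22 rose in KO, against 0.11% of all tested genes, and none fell. Of the 22, 21 had a positive log2 fold change, against 8444 of all 16392 genes. The median was 0.34, against 0.0048 over all tested genes. Tsc22d3, also called GILZ, a classic glucocorticoid target, stood at 74.3, 72.2 and 61.9 CPM in the KO home cage and 134, 114 and 119 CPM after novelty. The groups were well apart, and the rise was 0.82 ± 0.11 (edgeR adjusted p = 0.0123). Sgk1, a kinase that regulates ion channels, went from 115, 111 and 94.1 CPM to 161, 158 and 146 CPM (0.54 ± 0.08, adjusted p = 0.0329). Cdkn1a, the cell cycle inhibitor p21, rose by 0.82 ± 0.10 (adjusted p = 0.0123), from 7.43, 7.35 and 6.6 CPM to 14.0, 11.0 and 12.6 CPM. Pdk4, which turns cells from glucose to fatty acid oxidation by blocking pyruvate dehydrogenase, went from 14.9, 14.6 and 13.5 CPM to 29.9, 22.4 and 20.2 CPM (0.76 ± 0.12, adjusted p = 0.0363). Novelty library 1 was its highest. Fkbp5, a chaperone that feeds back on the receptor, had 75.4, 82.8 and 68.8 CPM and then 91.6, 94.1 and 96.7 CPM, without overlap, but did not pass (0.32 ± 0.08, adjusted p = 0.243). Of the alternatives, only DESeq2 called Fkbp5 (DESeq2 adjusted p = 0.0358). The receptor gene Nr3c1 was the only member with a negative value, at -0.14. Corticosterone was not measured.

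Among chaperones of the endoplasmic reticulum and genes of the unfolded protein response 2 of 25 rose, against 0.11% of all tested genes, and none fell. Of the 25, 23 were positive, against 8444 of all 16392 genes. The median was 0.28, against 0.0048 over all tested genes. Hspa5 encodes BiP, the main chaperone of this compartment, and lies on chromosome 2, 34771970 to 34777547. Its level was 199, 188 and 176 CPM in the KO home cage and 397, 330.4 and 400.5 CPM after novelty. The levels doubled, with a rise of 1.00 ± 0.15 (edgeR adjusted p = 0.0329). Xbp1, the factor that drives chaperone genes once its RNA has been spliced, rose by 0.69 ± 0.11 (adjusted p = 0.0363), from 64.8, 58.0 and 63.2 CPM to 105, 89.2 and 105 CPM. For both genes novelty library 2 was the lowest novelty library. Of 22 list members with a promoter window 8 held the ERSE, among them Hspa5, Calr, Hsp90b1 and Pdia6. Cytosolic heat shock proteins were positive in 20 of 20 members (median 0.25), and none passed the threshold. In KO 16 were separated upward without overlap (80.0%, against 8.6% of all tested genes). In wild type 4 of the 20 were, against 8.3% of all tested genes. Unadjusted p-values in KO were under 0.05 for 11 of the 20, against 1100 of all 16392 genes. In wild type they were under 0.05 for 10 of the 20, against 1797 of all genes. The wild-type median was 0.22, near that of KO, and 2 members passed in wild type.

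Adcyap1, which encodes the neuropeptide PACAP, was the only one of 22 neuropeptide and secreted precursors that rose, against 0.11% of all tested genes. Of the 22, 17 were positive, against 8444 of all 16392 genes, with a median of 0.14. Adcyap1 lies on chromosome 17, 93199017 to 93206537. KO home cage libraries 1, 2 and 3 had 3.85, 3.28 and 3.48 CPM and KO novelty libraries 6.98, 7.26 and 5.37 CPM, a rise of 0.87 ± 0.14 (edgeR adjusted p = 0.0329). Wild-type mice had 5.12, 4.98 and 5.38 CPM in the home cage and 5.27, 4.52 and 5.45 CPM after novelty, with overlap and no change past the test (-0.03 ± 0.14, adjusted p = 0.974). The KO home cage libraries were the lowest of the 12. The difference between both responses was 0.90 (95% interval of the single gene 0.49 to 1.31, unadjusted p = 0.000389), but its adjusted p over all genes was 0.9999, so Adcyap1 is not shown to respond in KO alone.

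The other rises were outside all lists. Map3k19, a kinase of the MAP kinase kinase kinase family (chromosome 1, 127815253 to 127855031), went from 4.94, 3.28 and 4.19 CPM to 9.50, 10.3 and 9.53 CPM (1.21 ± 0.15, edgeR adjusted p = 0.0123). This was the third largest fold of the 18. Plekhf1, a phosphoinositide-binding protein of endosomes and lysosomes, rose by 0.99 ± 0.16 (adjusted p = 0.0329), from 3.15, 2.54 and 3.59 CPM to 6.48, 5.78 and 6.27 CPM. Irs2, an adaptor of the insulin receptor, rose by 0.58 ± 0.10 (adjusted p = 0.0363), from 47.7, 42.4 and 42.8 CPM to 60.2, 71.8 and 67.4 CPM. Its span overlaps 9530052E02Rik on the other strand, which had 551 counts over the 12 libraries against 15194 of Irs2. The 18 genes lay on 12 chromosomes and were all protein coding, as were 88.2% of tested genes. Their median transcript length was 3244 bases against 3273 over all tested genes, and their median GC content 53.0% against 49.6%.

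**Figure D3:**
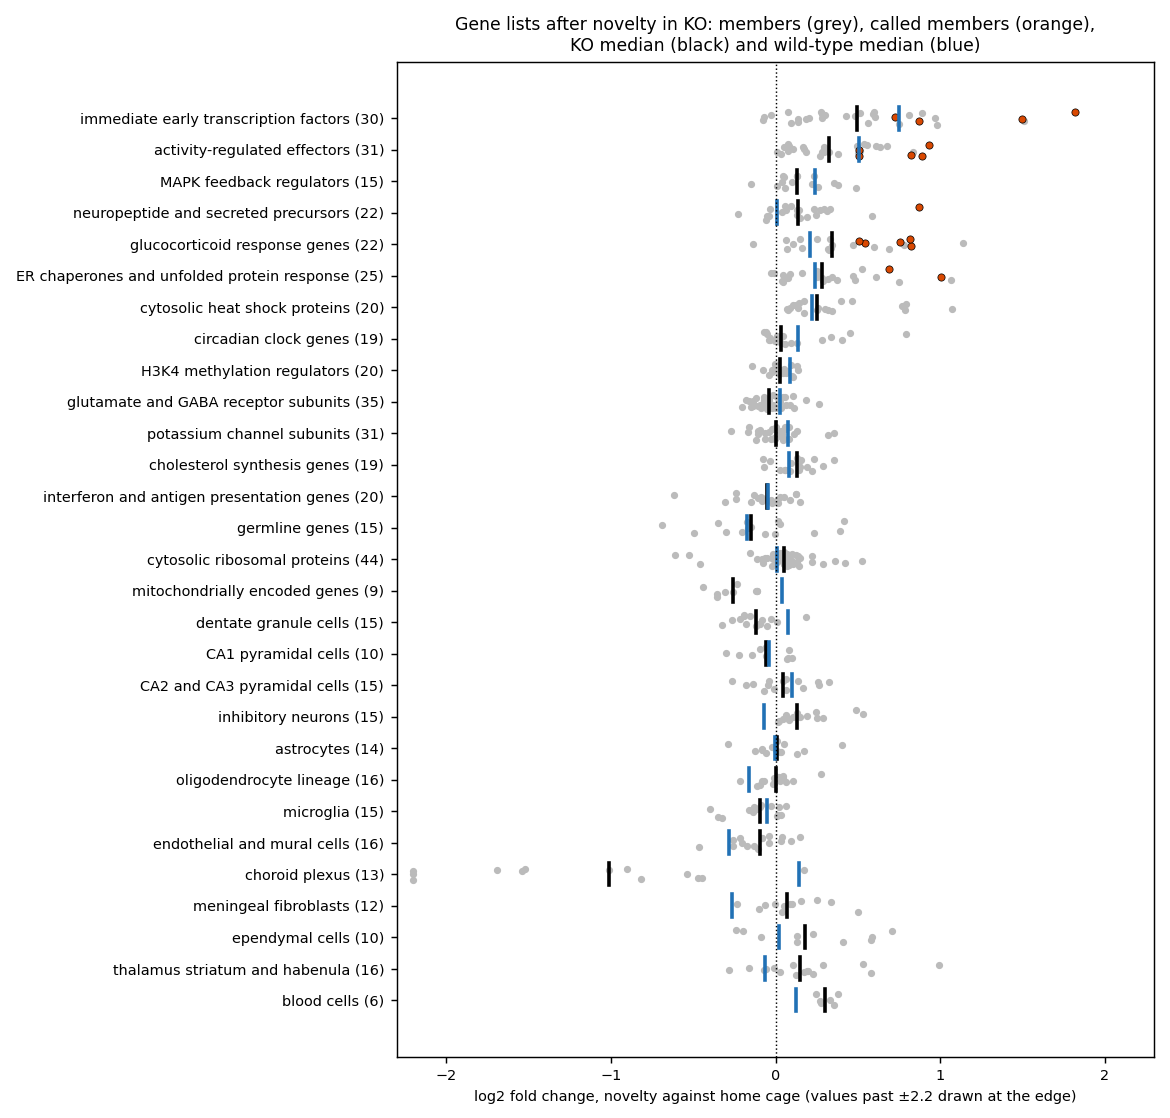
Log2 fold change after novelty in KO for the tested members of 29 gene lists (number in brackets), with called members in orange, the KO median as a black bar, the wild-type median as a blue bar and the median of all genes as a dotted line. Called members are in the early, effector, neuropeptide, glucocorticoid and endoplasmic reticulum lists, and the choroid plexus list has a KO median of -1.01.

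Markers of hippocampal cells were present in all 6 KO libraries, such as Prox1 of dentate granule cells at 86.0 to 113 CPM and Wfs1 of CA1 pyramidal cells at 115 to 160.3 CPM. None of the 13 cell type lists had a member past the threshold in KO. Fewer cells of a type and less RNA per cell cannot be told apart in bulk tissue. The list with the largest median was that of the choroid plexus, which lies beside the hippocampus in the ventricle: 12 of 13 members were negative, and its summed level was 194 to 1077 CPM in the KO home cage and 152 to 218 CPM after novelty. KO home cage library 2 alone was high, at 1077 CPM against 242 CPM in the next library. Ttr, the main transcript of that epithelium, had 38.3, 544 and 23.6 CPM in KO home cage libraries 1, 2 and 3 and 25.3, 17.2 and 5.47 CPM after novelty. Inhibitory neuron markers were positive in 15 of 15 members (median 0.13), and their summed level was 1582 to 1739 CPM in the home cage and 1643 to 1993 CPM after novelty, where library 2 was the highest. These levels overlap between home cage and novelty. Markers of thalamus, striatum and habenula, which border the hippocampus or lie near it, did not overlap in KO: their summed level was 258 to 268 CPM in the home cage and 275 to 307 CPM after novelty, with 11 of 16 members positive and a median of 0.15. Ependymal markers did not overlap either, at 17.1 to 17.9 CPM and 19.8 to 21.3 CPM (7 of 10 positive, median 0.18). In wild type the summed level of the thalamus, striatum and habenula list overlapped, and that of the ependymal list did not (15.2 to 16.5 CPM in the home cage and 16.7 to 17.5 CPM after novelty). Dentate granule cell markers were negative in 13 of 15 members (median -0.12), with overlapping summed levels of 1116 to 1190 CPM and 987 to 1194 CPM. The part of all these lists in the response was not tested. KO novelty library 2 also stood farthest from its group (root mean square log2 distance to its group mates 0.329 against 0.149 to 0.316 in the other 11 libraries, of which wild-type novelty library 1 was the next). Its deviation correlated with GC content over genes at -0.32, and that of KO novelty library 3 at 0.39. Other libraries had such values too: KO home cage library 2 had -0.32, wild-type novelty library 2 had -0.43 and wild-type novelty library 1 had 0.58. Without both of these far libraries (KO novelty 2 and wild-type novelty 1) 55 genes were higher and 8 lower in KO.

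The wild-type comparison shares no library with that of KO, but both used the same fit of 12 libraries, with its spread and filter. Their calls are therefore not independent, and with the wild-type libraries alone 6 genes were called, all higher. In the shared fit 57 genes rose in wild type (0.348% of those tested) and 6 fell (0.0366%). The 63 calls became 5, 15 and 9 without wild-type home cage libraries 1, 2 and 3, and 102 and 4 without wild-type novelty libraries 1 and 3. Of the 18 genes that rose in KO, 17 were positive in wild type without overlap between the groups, as were 8.3% of all tested genes, and 12 passed. These 12 are 66.7% of the KO rises and 21.1% of the wild-type rises. The 6 that passed in KO only were Maff, Plekhf1, Arl4d, Adcyap1, Pdk4 and Xbp1. Xbp1 missed by little in wild type (0.57, edgeR adjusted p = 0.0511), and Maff had a wild-type log2 fold change of 1.42. Of the 57 wild-type rises all were positive in KO, against 8444 of all 16392 tested genes. In KO 49 of the 57 were separated upward without overlap, against 8.6% of all tested genes. The median of the 57 was 0.65 in wild type and 0.43 in KO, and 51 were smaller in KO. Wild-type values chose these genes, however, which by itself makes their wild-type values large. The 6 genes that fell in wild type (Tipin, Rsrp1, Abhd14b, Nemp2, Ccdc177 and 0610040B10Rik) were all negative in KO (median -0.33 against -0.57). In KO all 6 had their novelty libraries wholly below the home cage libraries, against 6.35% of all genes. KO values entered the choice of these genes through the spread and filter of the shared fit, so the KO separation is not independent of it. From the wild-type libraries alone no fall was called. The 6 genes were separated likewise in wild type (7.7% of all genes), where wild-type values chose them and nothing is read from it.

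**Figure D4:**
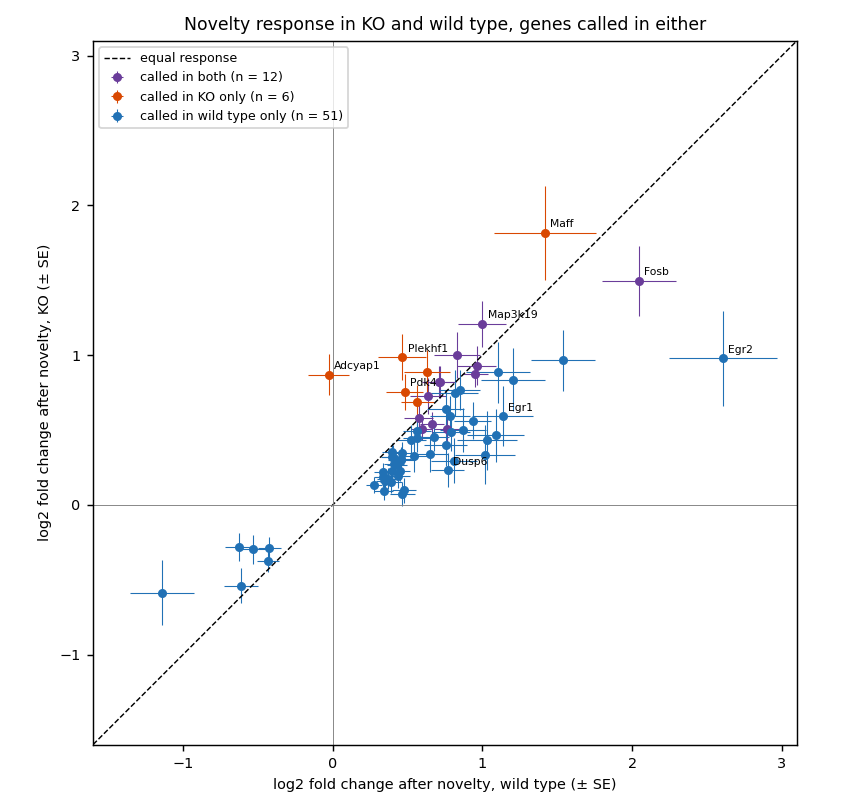
Log2 fold change after novelty in wild type (horizontal) and KO (vertical), each with its SE, for the 69 genes called in either genotype, coloured by where they were called, with a dashed line of equal response. Most genes called in wild type only lie below the line, Egr2 farthest, and Adcyap1 lies alone at 0.87 in KO and -0.03 in wild type.

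No gene passed the test of the difference between both responses (0% of 16392, edgeR quasi-likelihood test, smallest adjusted p = 0.9999). At an unadjusted p under 0.05 there were 563, and DESeq2 called 0. Egr2, chosen after its values were seen, had 12.2, 4.76 and 10.1 CPM in the KO home cage and 19.4, 17.2 and 18.1 CPM after novelty. In wild type it went from 0.987, 5.07 and 3.40 CPM to 19.9, 18.5 and 21.7 CPM. The novelty levels were close and the home cage levels were not, so the log2 fold change was 0.98 ± 0.32 in KO and 2.60 ± 0.36 in wild type (difference -1.62, 95% interval of the single gene -2.66 to -0.59, unadjusted p = 0.00474). For Fos, Arc and Npas4 the differences were -0.78, -0.80 and -0.80, with unadjusted p = 0.13, 0.0845 and 0.0499. Home cage Arc was 307, 146 and 275 CPM in KO and 73.1, 205 and 144 CPM in wild type. Over lists, 20 of 30 early transcription factors and 25 of 31 effectors had the smaller log2 fold change in KO, against 8089 of all 16392 genes, while 16 of 22 glucocorticoid targets had the larger one in KO. Without KO novelty library 2 and wild-type novelty library 1 the difference was called for 331 genes (29 larger and 302 smaller in KO), and for 65 (19 and 46) where these were combined with GC and length offsets, so the count of 0 depends on these libraries.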

How the data were processed

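The authors deposited raw counts per Ensembl gene for each library, without normalization. The submitters' processing notes name DESeq2, STAR 2.5.0c, HTSeq 0.6.1 and SAMtools 1.3, and the build GRCm38. The sources used here do not state how HTSeq treated strand or which annotation release it read. Per the labels' protocols, libraries were stranded, read singly over 50 nt on 1 flowcell. Tissue labels name hippocampus, while the extraction protocol mentions cultures. Of 47069 gene IDs, 46574 matched a GENCODE M21 symbol. Summary lines were dropped, and 14.7 to 17.2% of reads fell in no feature.

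The 12 KO and wild-type libraries were fitted together in edgeR 4.0.16 (R 4.3.3), with TMM factors, filterByExpr (minimum count 10, minimum total 15), quasi-likelihood tests and Benjamini-Hochberg adjustment over all tested genes at 0.05. The SE is the log2 fold change divided by the root of F. CPM use TMM factors. Lists were described by counts and medians without a test. The members and lists were chosen with earlier results of these data known. Genes were named where they passed, had at least 1 CPM and did not overlap (10 largest rises), plus up to 4 per list, plus Kdm5c, Fos, Arc, Npas4, Egr1, Fkbp5 and Hspa5. Irs2 and Pdk4, outside this rule, complete the 18, and they, Egr2, Dusp6, Homer1, Pdia4, the 6 wild-type falls and the genes near the threshold were chosen after their values were seen. Alternatives were DESeq2 1.42.0, RLE factors, no or a stricter filter (1 CPM in 3 libraries), a test against a fold of 1.2, the replicate number as a block, offsets for GC content and length, only the groups compared, and libraries left out. On simulated counts for the KO comparison over 16392 genes, the test recovered 68.7% of changes of 1.5-fold, 89.6% at 2-fold and 98.5% at 4-fold. Of its calls on these counts 5% were false. The changed genes had at least 1 CPM, and counts were drawn independently for each gene and library. They lacked the deviations with GC content that real libraries shared over many genes, so these rates need not hold for the real data.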

Additional observations from a re-analysis of the deposited data

How the results depend on the processing

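In KO, the 18 genes called became 101 without a low-count filter (77 higher, 24 lower), 70 with DESeq2, 60 with offsets for GC content and length, 10 with only the groups compared and 1 against a fold change of 1.2. Leaving out 1 KO library gave 1 to 10, and leaving out KO novelty library 2 and wild-type novelty library 1 together 63, or 164 with offsets, an alternative chosen after seeing the data. In wild type, the 63 genes became 252 without a filter, 218 with DESeq2, 369 with offsets, 6 with only the groups compared and 7 against a fold of 1.2. Leaving out 1 wild-type library gave 4 to 102, and leaving out both named libraries 451, or 714 with offsets. For the difference between responses, 0 genes became 8 without a filter, 331 without both libraries and 65 with offsets as well, and stayed 0 without any 1 library. Why the counts moved was not tested. Whether replicate numbers pair the KO libraries cannot be told from their correlations. Deviations of same-numbered KO libraries correlated at 0.09, 0.25 and 0.15, and those of differently numbered ones at -0.22 to 0.16. KO home cage libraries 1 and 2 correlated best with the novelty library of their own number, and library 3 with novelty library 1 (0.16). In wild type same-numbered libraries correlated at -0.20, -0.32 and 0.06, and none of these was the best match. With the replicate number as a block, 6 genes were called in KO, 33 in wild type and 0 for the difference, and with block and offsets 57, 323 and 0. None of the 18 called genes, nor Fos, Arc, Npas4, Egr1, Fkbp5 or Kdm5c, changed direction in KO under any alternative. Some list medians changed sign: glutamate and GABA receptor subunits (-0.04, and 0.0043 without KO home cage library 2), potassium channels (0.0043, and -0.05 without KO novelty library 2 or -0.0052 with offsets), germline genes (-0.15, and 0.0023 without both named libraries and with offsets), and the CA1, CA2 and CA3, astrocyte, oligodendrocyte and meningeal marker lists under at least 1 alternative each. Fosl2 passed in KO in all 6 fits without a library and all 11 other alternatives. Depth limits genes near 1 CPM, such as Maff, which had 375 counts over 12 libraries.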

Other observations

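The genes nearest to passing in KO were chosen after their values were seen. Dnajb1, a cochaperone of HSP70, was at 44.0, 38.4 and 42.7 CPM in the KO home cage and 73.9, 67.5 and 71.5 CPM after novelty (log2 fold change 0.77 ± 0.13, edgeR adjusted p = 0.056). Dio2, which activates thyroid hormone in astrocytes, was at 81.0, 79.1 and 80.3 CPM and then 153, 147 and 143 CPM (adjusted p = 0.0795). Gem, a small GTPase that dampens calcium channels, had the largest value among the next 12 genes, at 1.21 ± 0.23 (adjusted p = 0.0795).

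The nearest to a fall was Cd180, a receptor of immune cells that is related to Toll-like receptors. It was at 2.82, 3.42 and 2.67 CPM in the KO home cage and 1.62, 1.17 and 1.10 CPM after novelty, without overlap (-1.17 ± 0.21, edgeR adjusted p = 0.0578). Zfp46, a zinc finger gene, followed at -0.47 ± 0.09 (adjusted p = 0.0844). Microglia markers had a median of -0.09, with 4 of 15 separated downward against 6.35% of all genes, and their summed level was 531 to 577 CPM in the home cage and 453 to 539 CPM after novelty. Mitochondrially encoded genes were negative in 9 of 9 (median -0.26), with none past the threshold, and mt-Co3 and mt-Atp6 were near 0.5 CPM in these libraries. Of the 9, 4 were separated downward, against 6.35% of all genes. Their mean of log2(CPM + 0.5) was 8.74 to 8.89 in the KO home cage and 8.51 to 8.65 after novelty, without overlap. In wild type that mean overlapped, and 6 of the 9 were positive (median 0.04). Receptor subunits for glutamate and GABA (median -0.04, 12 of 35 positive), potassium channels (0.00, 16 of 31), interferon genes (-0.05, 8 of 20), germline genes (-0.15, 5 of 15), circadian clock genes (0.03, 12 of 19) and regulators of H3K4 methylation (0.02, 13 of 20) had no member past the threshold.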
